A study of Caenorhabditis elegans with 8 samples.

Results

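The cathepsins L, Z and F and the cystatins of Caenorhabditis elegans are described here by 6 genes, chosen by their names in the deposited table out of the 46904 genes it lists. The 4 cathepsin genes are cpl-1 (cathepsin L), cpz-1 and cpz-2 (cathepsin Z) and tag-196 (cathepsin F), and the 2 cystatin genes are cpi-1 and cpi-2. All 6 genes had enough reads to be tested. The samples were pools of whole CL2006 worms. This strain makes the human peptide amyloid beta (Aβ) from a transgene under a body wall muscle promoter, with rol-6 as its marker, and worms of both groups are labelled as this strain. The labels also give the genotype as WT, and the transgene is described here by the strain name. The tested worms ate HT115 (DE3) bacteria that carried a plasmid for RNAi against cpr-6 (4 libraries), and the control worms ate bacteria with the empty vector (4 libraries). Both groups were kept at 20 °C for 2 generations, each on its own bacteria, and were collected at day 6 of adulthood.

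Cysteine cathepsins of the papain family are made as inactive precursors, are activated in the acidic lysosome and there degrade proteins delivered by endocytosis and autophagy. Cystatins are small proteins that block the active site of these enzymes. In worms, cathepsin L is known for its part in yolk processing, embryonic development and the clearance of dying cells, and cathepsin Z for moulting and cuticle remodelling. The gene knocked down in the study, cpr-6, encodes a cathepsin B-like member of the same family.

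Libraries were made with CEL-Seq2, which reads the 3′ ends of transcripts, and levels are given as counts scaled to a common library size after TMM scaling (CPM). Total counts ran from 8184412 to 10837163 in cpr-6 RNAi libraries and from 9489866 to 12506320 in empty vector libraries. cpr-6 itself stood at 79.5, 80.2, 65.6 and 101 CPM in cpr-6 RNAi libraries 1 to 4, against 749, 731, 773 and 779.7 CPM in empty vector libraries 1 to 4, a fall to 10.8% of the control level (log2 fold change -3.22 ± 0.114 SE, edgeR adjusted p = 2.00e-10). Markers of intestine, body wall muscle, hypodermis, germline and neurons were read in every library, apart from the neuronal genes rgef-1 and unc-31, which were at 0 in some. cpr-6 RNAi replicate 4 stood apart: genes of the mitochondrial genome took 2.14% of its counts, against 0.805% to 1.16% in the other 7 libraries. Its germline and oocyte markers summed to 6047 CPM, against 8335 to 9372 CPM in the other cpr-6 RNAi libraries and 8119 to 8599 CPM in empty vector libraries. Sperm and embryo markers, read at low levels, went the other way. They summed to 32.3 and 19.5 CPM in this library, against at most 22.5 and 15.8 CPM in any other. Its hypodermis markers summed to 1341 CPM, against 888 to 974 CPM in the other cpr-6 RNAi libraries and 759 to 1047 CPM in empty vector libraries. These sums include rol-6, also the marker of the transgene, with means of 637 CPM under cpr-6 RNAi and 561 CPM in empty vector worms. Body wall muscle markers summed to 4717 to 5935 CPM under cpr-6 RNAi and 3080 to 5384 CPM in empty vector worms, lowest in empty vector replicates 1 and 2. In whole worms, fewer cells of a type and less RNA per cell cannot be told apart.

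The 6 genes lie at these places on WBcel235, as the deposited table gives them, with exons, untranslated regions and protein lengths from the Ensembl release 115 annotation. cpl-1 (WBGene00000776) covers chromosome V, 16592572 to 16595346, on the minus strand. Its longest transcript has 4 exons, a 3′ UTR of 175 bases and a coding region for 337 residues, and a shorter one encodes 198 residues. cpz-1 (WBGene00000788) covers chromosome I, 2686639 to 2689493, on the minus strand, with 5 exons, a 3′ UTR of 58 bases and 306 residues. cpz-2 (WBGene00000789) covers chromosome V, 13381189 to 13383077, on the plus strand, with 6 exons, a 3′ UTR of 85 bases and 467 residues. tag-196 (WBGene00007055) covers chromosome V, 8594914 to 8597500, on the plus strand, with 7 exons and 477 residues. The cystatins are far shorter, with 139 residues for cpi-1 (WBGene00000535, chromosome IV, 6092603 to 6093680, minus strand, 3 exons) and 143 residues for cpi-2 (WBGene00000534, chromosome V, 6044028 to 6045671, plus strand, 3 exons).

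cpl-1, cpi-1 and cpi-2 were abundant genes in these worms, and cpz-1, cpz-2 and tag-196 were moderate. By mean CPM over the 8 libraries, cpl-1 was at or above 97.2% of the genes tested, cpi-1 95.3%, cpi-2 94.0%, cpz-1 78.2%, cpz-2 65.9% and tag-196 54.3%. Divided by transcript length, the order of mean levels in cpr-6 RNAi libraries was cpi-1 (649 CPM per kb), cpl-1 (492), cpi-2 (489.6), cpz-1 (78.5), cpz-2 (21.3) and tag-196 (13.5 CPM per kb). In empty vector libraries it was cpi-1 (647 CPM per kb), cpi-2 (485), cpl-1 (434), cpz-1 (72.5), cpz-2 (25.6) and tag-196 (11.99 CPM per kb). The per-length levels of cpl-1 and cpi-2 overlapped in both groups, from 443 to 535.5 and from 472 to 521 CPM per kb under cpr-6 RNAi. cpz-2 and tag-196 overlapped under cpr-6 RNAi (18.3 to 24.6 and 10.5 to 18.8 CPM per kb) but not in empty vector worms (24.9 to 26.01 and 11.1 to 13.2 CPM per kb). Lengths are of the transcript with the longest coding region. Because CEL-Seq2 reads 3′ ends, CPM carries no length term. Division by length therefore raises genes with short transcripts, such as the cystatins, and the order above is not one of transcript numbers. In plain CPM, cpl-1 stood above both cystatins.

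None of the 6 genes passed the test for a difference between cpr-6 RNAi and empty vector worms. edgeR's quasi-likelihood test called 0 of 6 at an adjusted p of 0.05, where it called 1 of 10932 genes, or 0.00915%, which was cpr-6. At an unadjusted p under 0.05 the count was 1 of 6, cpz-2, beside 3.85% of all genes tested. DESeq2, which called 5 of all genes (0.0457%), and limma voom, which called 1, also called 0 of 6 after adjustment. The largest differences were a lower level of cpz-2 and a higher level of cpl-1, and both cystatins lay almost level. The 95% intervals of the log2 fold changes reached from -0.52 at the lowest (cpz-2) to 0.46 at the highest (tag-196), without adjustment for the number of genes. These limits lie short of 1.5-fold, up or down. How many of all genes tested had intervals as narrow was not counted, so this is not read as a trait of the 6. Nothing in the labels beyond the statement of 4 biological repeats shows that libraries came from separate cultures, so these p-values measure the spread between libraries.

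**Figure D1:**
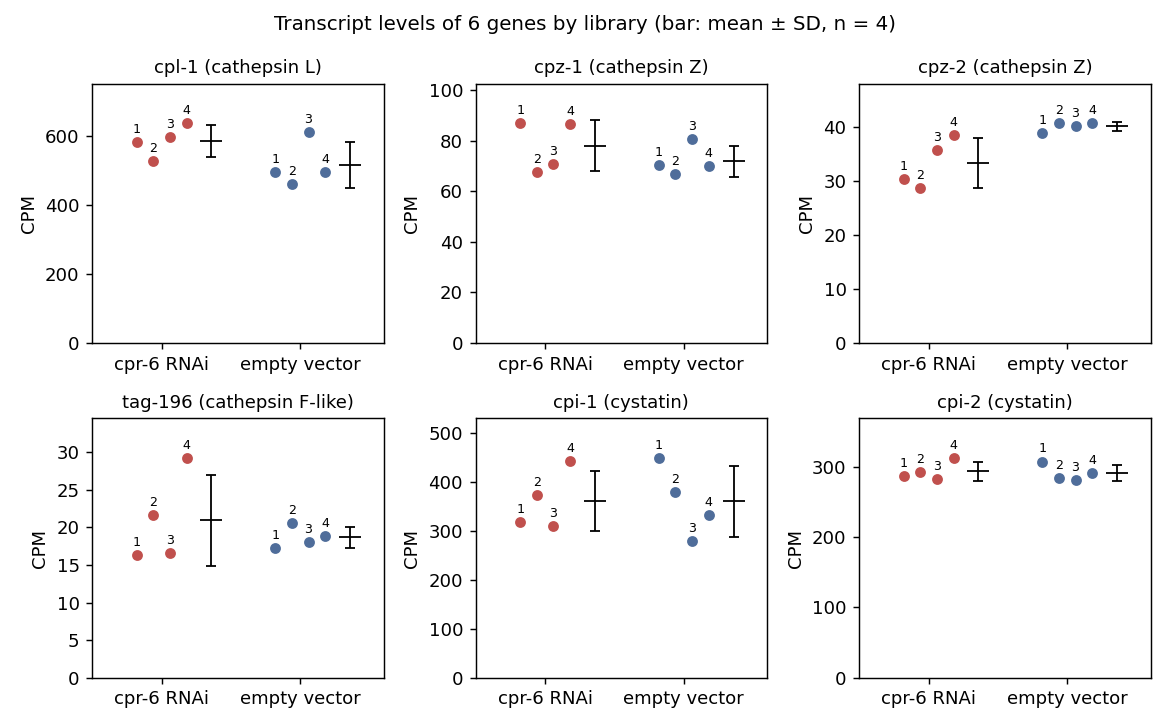
CPM of each gene (vertical axis, from 0) in the 4 cpr-6 RNAi libraries (red) and the 4 empty vector libraries (blue), with the replicate number over each point and mean ± SD beside it. The groups are apart for cpz-2, with 28.6 to 38.4 CPM under cpr-6 RNAi and 38.9 to 40.7 CPM in empty vector worms, and overlap for the other genes.

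cpl-1 encodes the worm's cathepsin L, an endopeptidase of lysosomes and yolk granules. It had 583.5, 527, 596 and 637 CPM in cpr-6 RNAi libraries 1 to 4, against 496, 460.1, 613 and 496 CPM in empty vector libraries 1 to 4. Empty vector replicates 1, 2 and 4 lay below all cpr-6 RNAi libraries, and empty vector replicate 3 lay within their range. The mean was 586 ± 45.5 CPM under cpr-6 RNAi and 516 ± 66.5 CPM in empty vector worms (SD, n = 4 each), a log2 fold change of 0.18 ± 0.0936 (SE; 95% interval -0.01 to 0.38). It did not pass edgeR's test (p = 0.0694, adjusted p = 0.997), and the exact two-sided permutation p of the log2 levels was 0.114. The difference of mean log2 CPM was 0.22 within replicates 1 and 2 and 0.16 within replicates 3 and 4, a division chosen with earlier results of these data known. With one library left out, the log2 fold change lay between 0.13 without empty vector replicate 2 (edgeR unadjusted p = 0.221) and 0.28 without empty vector replicate 3 (edgeR unadjusted p = 0.00646, adjusted p = 0.895). Over the 16 alternatives the adjusted p ran from 0.841 to 1.00.

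cpz-1 encodes a cathepsin Z, a carboxypeptidase that takes part in moulting in worms. It had 87.0, 67.8, 70.8 and 86.4 CPM in cpr-6 RNAi libraries 1 to 4, against 70.3, 66.8, 80.8 and 69.8 CPM in empty vector libraries 1 to 4. The groups overlapped, with cpr-6 RNAi replicates 1 and 4 above all others and the remaining 2 among the empty vector values. The log2 fold change was 0.11 ± 0.106 (SE; 95% interval -0.12 to 0.34; edgeR adjusted p = 0.997). The difference of mean log2 CPM was 0.16 within replicates 1 and 2 and 0.058 within replicates 3 and 4. The small nuclear RNA gene F32B5.9, on the other strand within cpz-1, held 16 counts in all.

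cpz-2, the second cathepsin Z gene, had the largest difference in size among the 6 and lay in the other direction from cpz-1. Its levels were 30.3, 28.6, 35.8 and 38.4 CPM in cpr-6 RNAi libraries 1 to 4, against 38.9, 40.6, 40.1 and 40.7 CPM in empty vector libraries 1 to 4. Every cpr-6 RNAi library lay below every empty vector library, although cpr-6 RNAi replicate 4 and empty vector replicate 1 were close together. Among all genes tested, 1.25% were separated in this way with cpr-6 RNAi lower and 2.52% in either direction. The mean was 33.3 ± 4.595 CPM under cpr-6 RNAi and 40.1 ± 0.838 CPM in empty vector worms (SD, n = 4 each). The log2 fold change was -0.27 ± 0.110 (SE; 95% interval -0.52 to -0.05), or 0.830-fold. With p = 0.0272 it ranked 230 among 10932 genes and did not pass edgeR's test (adjusted p = 0.997), and the two-sided exact permutation test of the log2 levels gave 0.0286, which is the lower limit for 4 libraries against 4.

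For cpz-2, the mean log2 CPM differed by -0.43 within replicates 1 and 2 and by -0.12 within replicates 3 and 4. This division was chosen with earlier results of these data known, so a p-value on it is not an independent test. An interaction term for treatment by replicate pair did not pass in edgeR for cpz-2 (unadjusted p = 0.161, adjusted p = 0.997). In edgeR this term called 0 of all genes after adjustment, or 0%, and 418 genes (3.82%) had an unadjusted p under 0.05. With one library left out, the log2 fold change of cpz-2 lay between -0.20 without cpr-6 RNAi replicate 2 (edgeR unadjusted p = 0.0971) and -0.35 without cpr-6 RNAi replicate 4 (edgeR unadjusted p = 0.00252, adjusted p = 0.555). Its edgeR unadjusted p was also above 0.05 without cpr-6 RNAi replicate 1 (0.0776), empty vector replicate 2 (0.0567) or empty vector replicate 4 (0.0504). Over the 16 alternatives the adjusted p ran from 0.555 to 1.00. In the authors' deposited table cpz-2 has a log2 fold change of -0.29 with p = 0.0169 and adjusted p = 0.9998, where 3.35% of the genes with a p-value have one under 0.05. The authors' deposited table gives the other 5 genes log2 fold changes of 0.17 for cpl-1, 0.099 for cpz-1, 0.14 for tag-196, -0.0015 for cpi-1 and -0.0041 for cpi-2, with unadjusted p of 0.0962 to 0.991. The last 59 bases of cpz-2 overlap gcy-34, a guanylate cyclase gene on the other strand, which held 40 counts over all 8 libraries together, against 286 to 505 counts for cpz-2 in each.

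The log2 ratio of cpz-2 to cpz-1 was -1.52, -1.24, -0.98 and -1.17 in cpr-6 RNAi libraries 1 to 4, against -0.85, -0.72, -1.01 and -0.78 in empty vector libraries 1 to 4. The cpr-6 RNAi libraries 1, 2 and 4 lay below all empty vector libraries, and cpr-6 RNAi replicate 3 lay between empty vector replicate 3 and the other empty vector libraries. These ratios are given as values with no test, because the genes were chosen with earlier results of these data known.

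tag-196 encodes the cathepsin F of worms, whose annotation lists a cysteine protease inhibitor activity beside its protease activity. It had 16.4, 21.6, 16.6 and 29.3 CPM in cpr-6 RNAi libraries 1 to 4, against 17.3, 20.5, 18.1 and 18.9 CPM in empty vector libraries 1 to 4. The groups overlapped, and cpr-6 RNAi replicate 4 was the highest of all. The log2 fold change was 0.16 ± 0.168 (SE; 95% interval -0.24 to 0.46; edgeR adjusted p = 0.997), and without cpr-6 RNAi replicate 4 it was -0.04. The difference of mean log2 CPM was -0.00053 within replicates 1 and 2 and 0.25 within replicates 3 and 4.

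**Figure D2:**
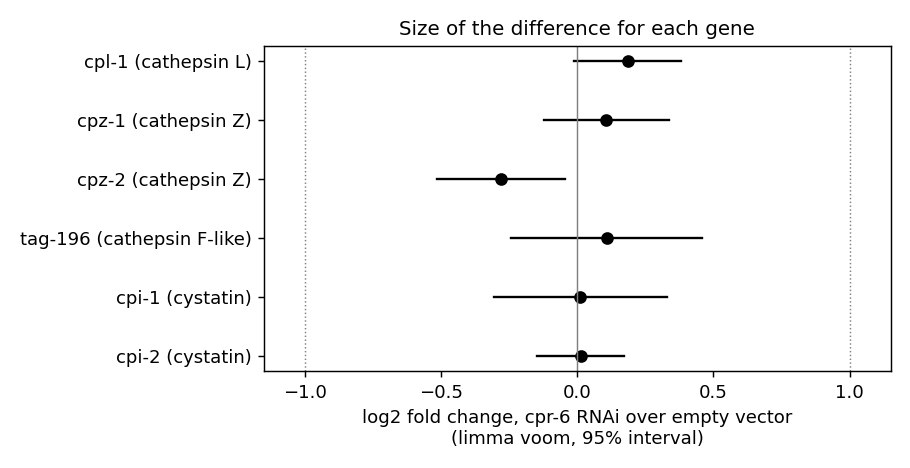
Log2 fold change of each gene (horizontal axis, cpr-6 RNAi over empty vector) from limma voom, with its 95% interval as a line. Dotted lines mark 2-fold in either direction; the interval of cpz-2 lies below 0 (-0.52 to -0.05) and the 5 others include 0.

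The cystatins showed almost no difference in mean. cpi-1, a secreted cystatin, had 319, 373, 309 and 442 CPM in cpr-6 RNAi libraries 1 to 4, against 449, 379, 279 and 333 CPM in empty vector libraries 1 to 4. The groups covered almost the same range, so the spread within groups was much wider than the distance between them. The means were 361 ± 61.1 CPM under cpr-6 RNAi and 359.9 ± 71.9 CPM in empty vector worms (SD, n = 4 each). The log2 fold change was 0.0034 ± 0.147 (SE; 95% interval -0.31 to 0.33; edgeR adjusted p = 0.999). The replicate pairs went opposite ways, with a difference of -0.26 in mean log2 CPM within replicates 1 and 2 and 0.28 within replicates 3 and 4. The interaction term for that disagreement did not pass in edgeR (unadjusted p = 0.0311, adjusted p = 0.997). The small RNA (piRNA) genes 21ur-14443 and 21ur-9673, on the other strand within cpi-1, held 0 counts.

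cpi-2, a cystatin annotated to oocyte development and yolk granules, was the steadiest of the 6. It had 286, 292, 282.5 and 312 CPM in cpr-6 RNAi libraries 1 to 4, against 307, 283, 281 and 291 CPM in empty vector libraries 1 to 4. All libraries fell in a narrow band, and the highest values of both groups were side by side. Its spread within groups was 0.061 on the log2 scale, and 1.35% of genes tested had one as small or smaller, against 25.3% for cpz-2, 28.1% for cpl-1, 31.2% for cpz-1, 61.5% for cpi-1 and 65.7% for tag-196. The log2 fold change was 0.013 ± 0.0752 (SE; 95% interval -0.15 to 0.17; edgeR adjusted p = 0.997). Inside the span of cpi-2, R01B10.3 lies on the other strand along 541 bases. R01B10.3 held 1118 counts over all libraries together, against 2583 to 3610 counts for cpi-2 in each library, and its log2 fold change was -0.01. R01B10.4 overlaps the last 32 bases of cpi-2 on the other strand and held 675 counts in all. The exact two-sided permutation test gave 0.257 for cpz-1, 0.686 for tag-196, 1 for cpi-1 and 0.657 for cpi-2.

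cpr-6 RNAi replicate 4 was the highest cpr-6 RNAi library for 5 of the 6 genes, all but cpz-1, and the highest of all 8 libraries for cpl-1, tag-196 and cpi-2. Over all genes tested it was the highest cpr-6 RNAi library for 40.5% and the highest of all 8 libraries for 29.9%. That is the library with the high mitochondrial share and the low sum of germline markers given above, and the part of these in the gene levels was not tested. Without it the log2 fold changes were 0.14 for cpl-1, 0.06 for cpz-1, -0.35 for cpz-2, -0.04 for tag-196, -0.11 for cpi-1 and -0.02 for cpi-2, none past edgeR's test after adjustment. Among empty vector libraries, replicate 3 was the highest for cpl-1 and cpz-1 and the lowest for cpi-1 and cpi-2.

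**Figure D3:**
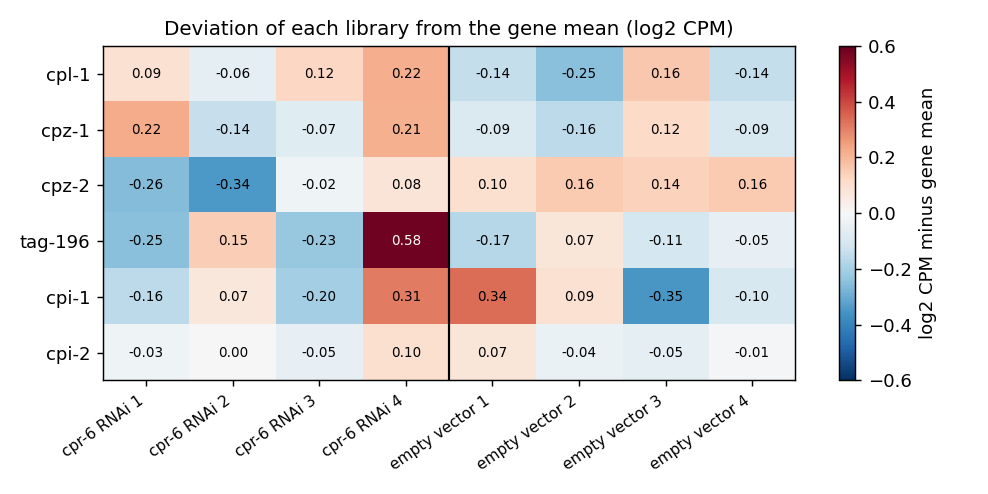
Log2 CPM of each gene in each library minus that gene's mean over the 8 libraries, with the value in each cell; red is above the mean and blue below, cpr-6 RNAi libraries left of the line. The widest deviations are 0.58 for tag-196 in cpr-6 RNAi replicate 4 and -0.35 for cpi-1 in empty vector replicate 3.

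Profiles over the 8 libraries were compared by the root mean square difference of centred log2 CPM, where a smaller value is a closer likeness. Within the set, cpl-1 and cpz-1 were the closest pair (0.099) and cpl-1 and cpi-1 the farthest (0.32). The cathepsin Z genes differed by 0.25 and the cystatins by 0.19. This measure takes in the size of deviations as well as their pattern. cpi-1 varied more than cpi-2 (SD of log2 CPM over the 8 libraries 0.245 and 0.057). The 0.19 therefore does not show that the patterns of the cystatins differ. Among 8425 candidate genes, vha-8, a subunit of the proton pump that acidifies lysosomes, was the closest to cpl-1 (0.038), followed by T19C3.5 (0.060) and F56D5.6 (0.069). vha-8 had a log2 fold change of 0.22, beside 0.18 for cpl-1, and did not pass edgeR's test (adjusted p = 0.997). The profiles include the difference between groups, so a similar fold change follows from the choice by likeness. cysl-2, a cysteine synthase gene, was closest to cpz-1 (0.062), followed by C02F5.14 and M28.8. Y53G8AR.9 was closest to cpz-2 (0.055), followed by cogc-6, a Golgi tethering subunit, and the mitochondrial tRNA enzyme gene mttu-1. The carnitine palmitoyltransferase gene cpt-3 was closest to tag-196 (0.077), followed by nhr-104 and ztf-13. Y57A10A.26 was closest to cpi-1 (0.055), followed by F10E9.12 and the histone H1 gene hil-3. The ribosomal protein gene rpl-7 was closest to cpi-2 (0.017), followed by the lysosomal membrane protein gene lmp-1 (0.027) and ril-1. With an SD of 0.057, cpi-2 had 10903 candidate genes, against 5354 for tag-196 (SD 0.27). Any gene that varies little lies near cpi-2, so 0.017 is not a closer likeness of pattern than 0.077.

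The 4 cathepsins and the 2 cystatins were compared as summed levels. The cathepsin B family is not in these sums. It made up 77.7% ± 1.87 of summed papain-family levels under cpr-6 RNAi and 83.1% ± 0.670 in empty vector worms (SD, n = 4 each). The ratios below are therefore not the balance of all papain-family proteases to cystatins. The 4 cathepsins summed to 717, 645, 719 and 791 CPM in cpr-6 RNAi libraries 1 to 4, against 622, 588, 752 and 625 CPM in empty vector libraries 1 to 4. The 2 cystatins summed to 605, 665, 592 and 755 CPM in cpr-6 RNAi libraries, against 756, 662, 560.4 and 624 CPM in empty vector libraries. The log2 ratio of cathepsins to cystatins averaged 0.14 ± 0.153 under cpr-6 RNAi and -0.0062 ± 0.309 in empty vector worms (SD, n = 4 each). The ratios overlapped, and the widest values, -0.28 and 0.42, were both from empty vector worms (replicates 1 and 3).

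Within the papain family as listed (the 4 cathepsins, the cathepsin B family and 12 other papain-like genes), the sum of all genes but cpr-6 differed between groups by less than its spread. The family summed to 3491 ± 502 CPM under cpr-6 RNAi and 4122 ± 331 CPM in empty vector worms (SD, n = 4 each). With cpr-6 left out, the sum was 3410 ± 493 CPM under cpr-6 RNAi and 3364 ± 313 CPM in empty vector worms. cpr-6 made up 2.35% ± 0.354 of the sum under cpr-6 RNAi and 18.5% ± 1.02 in empty vector worms. cpl-1 made up 16.9% ± 1.55 under cpr-6 RNAi and 12.5% ± 0.794 in empty vector worms. With cpr-6 left out of the sum, the share of cpl-1 was 17.3% ± 1.61 under cpr-6 RNAi and 15.3% ± 0.867 in empty vector worms, with overlapping libraries (15.7% to 19.6% under cpr-6 RNAi, 14.4% to 16.3% in empty vector worms).

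**Figure D4:**
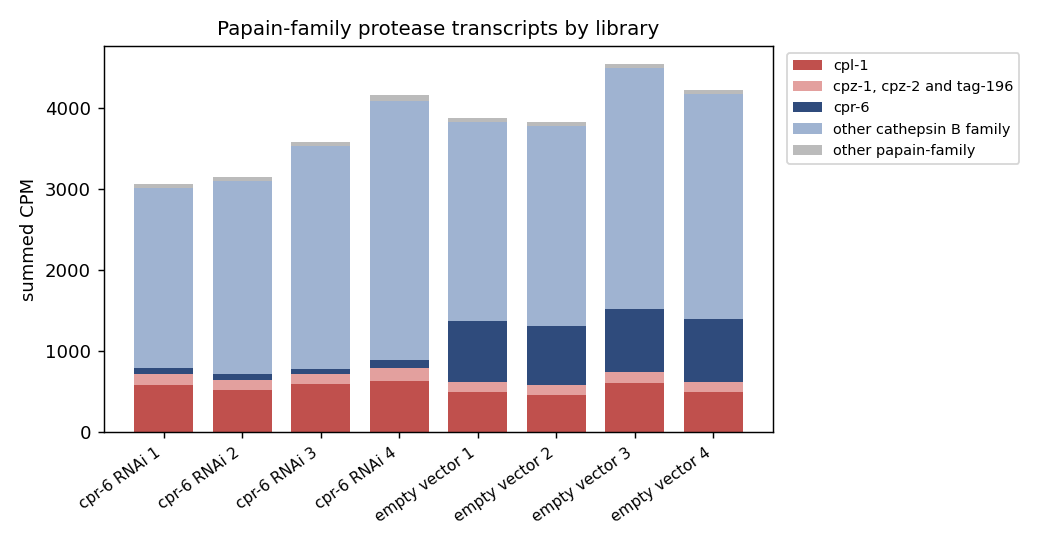
Summed CPM of papain-family protease transcripts in each library (vertical axis, from 0), stacked by gene group, cpr-6 RNAi libraries on the left. The cpr-6 layer is thin under cpr-6 RNAi (2.35% of the sum on average) and thick in empty vector worms (18.5%), and the red layers of cathepsins L, Z and F sum to 645 to 791 CPM under cpr-6 RNAi and 588 to 752 CPM in empty vector worms.

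Genes around these proteases in the lysosome were set beside the 6. The median log2 fold change of the 6 was 0.064, with 5 above 0 and 1 below, and that of all 10932 genes tested was 0.00058. Of 10 tested cathepsin B family genes, 1 passed edgeR's test lower and 0 higher, and the one that passed was cpr-6. Beside it, cpr-3 had a log2 fold change of 0.26 ± 0.1995 and W07B8.4 one of -0.76 ± 0.571 (SE). W07B8.4 held only 85 counts over all 8 libraries together. Of 6 tested genes among the other papain-family proteases, 0 passed, with 5 above 0 and a median of 0.13. Y40H7A.10, Y113G7B.15 and F15D4.4 had log2 fold changes of 0.24 ± 0.160, 0.42 ± 0.335 and 0.19 ± 0.372 (SE). Y113G7B.15 and F15D4.4 held only 117 and 114 counts over all 8 libraries together. The 6 others of that list were below the count filter, and C32B5.13 and Y51A2D.1 had 0 counts.

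Aspartyl proteases, the other main class of lysosomal endopeptidases, had 4 tested genes above 0 and 7 below, with a median of -0.04 and 0 of 11 past the test. asp-4 had a log2 fold change of 0.33 ± 0.0899 (SE), asp-12 one of -0.48 ± 0.179 and asp-17 one of 0.41 ± 0.230. In edgeR, 2 of the 11 had an unadjusted p under 0.05, beside 3.85% of all genes tested. asp-4 (edgeR unadjusted p = 0.00216, adjusted p = 0.997) had groups apart, like cpz-2, but higher under cpr-6 RNAi. Its levels were 341 to 439 CPM there and 294 to 335 CPM in empty vector worms. The cytosolic calpains had 0 of 6 past the test and a median of -0.00053, with clp-7 at -0.13, clp-4 at 0.15 and clp-1 at -0.11. Serpins, another inhibitor family, had 0 of 4 past the test and a median of 0.12. srp-6, known in worms for restraining lysosomal cysteine proteases during injury, stood at 78.8 ± 9.54 CPM under cpr-6 RNAi and 73.7 ± 8.59 CPM in empty vector worms (SD, n = 4 each; log2 fold change 0.097). srp-2 had a log2 fold change of 0.55 and srp-7 one of -0.07.

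The proton pump and membrane of the lysosome, which keep cathepsins in an acidic space, had 21 of 33 tested genes above 0 and 12 below, with a median of 0.060 and 0 past the test. vha-8, vha-14 and vha-15 had log2 fold changes of 0.22, 0.19 and 0.22. In edgeR, 2 of the 33 had an unadjusted p under 0.05, beside 3.85% of all genes tested. The groups of vha-14 were also apart, with 486 to 561 CPM under cpr-6 RNAi and 412 to 482 CPM in empty vector worms. Transcription factors that act on lysosomal genes had a median of 0.0072 and 0 of 6 past the test, with pqm-1 at -0.15, mxl-3 at 0.24 and elt-2 at 0.28, and hlh-30, the worm TFEB, at 0.026. Yolk proteins, which cathepsin L helps to process in embryos, and their receptor had 5 of 7 above 0, a median of 0.11 and 0 past the test. vit-1, vit-4 and vit-3 had log2 fold changes of 0.50, 0.44 and 0.44, and the oocyte receptor gene rme-2 one of -0.06.

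**Figure D5:**
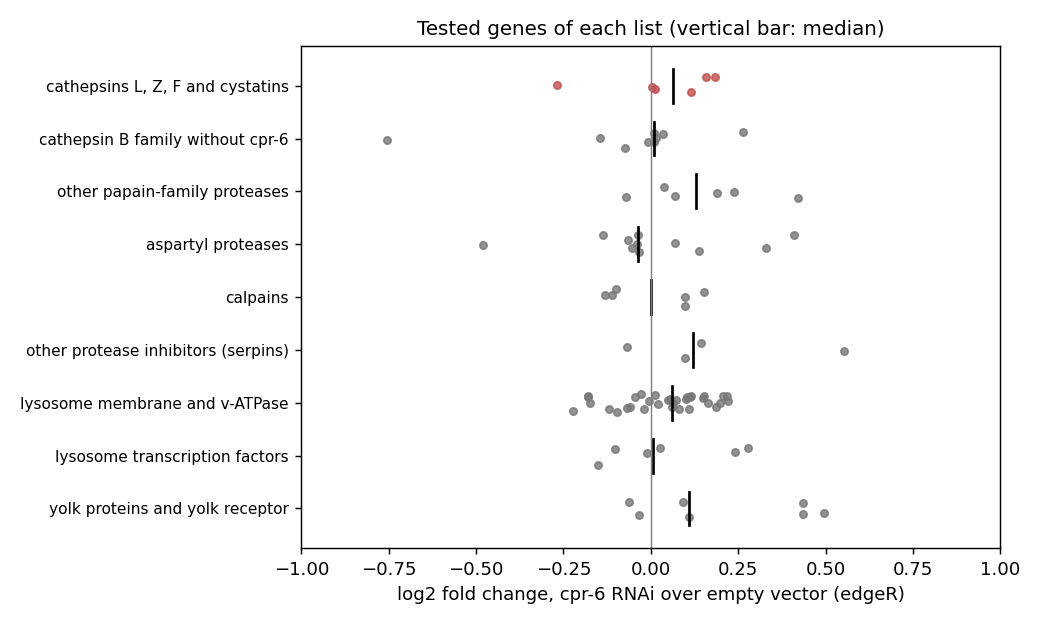
Log2 fold change of every tested gene (points, cpr-6 RNAi over empty vector, edgeR) in each list, with the median as a vertical bar; cpr-6 is left out of its list because it lies at -3.22. The 6 genes described here (red) run from -0.27 to 0.18.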

How the data were processed

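The authors deposited raw counts per gene for 8 CEL-Seq2 libraries, together with normalized counts and a comparison of their own. The tools named are cutadapt (2.10), DESeq2 (1.30.1), HTSeq (0.12.4) and TopHat2 (2.1.1), and the build is WBcel235, per the submitters' processing notes. The use of strand and of molecular identifiers is not given in the sources used here. Counts made without identifiers would include amplified copies, and counts made without strand would share reads between overlapping genes.

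Counts were analysed in R 4.3.3 with edgeR 4.0.16 by a two-sided quasi-likelihood test of treatment alone (robust fit, TMM factors). filterByExpr at a minimum of 10 counts left 10932 of 46904 genes, and Benjamini-Hochberg adjusted p-values over these were called under 0.05. The SE of a log2 fold change was its absolute value divided by the square root of edgeR's F statistic. The 95% intervals came from limma 3.58.1 voom and belong to voom's own estimates. These differ somewhat from the edgeR values printed beside them, most for tag-196 (0.11 in voom, 0.16 in edgeR). Log2 CPM used a prior count of 2. Exact two-sided permutation tests compared 4 against 4 libraries. The test was tried on simulated data first. Alternatives were other scalings and filters, DESeq2 1.42.0, voom, a replicate block, a term for replicates 1 and 2 against 3 and 4, and each library left out.

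Named genes are cpr-6, the 6 genes, up to 3 genes with the smallest p of each list, genes overlapping the 6, and the 3 genes of closest profile among those whose SD over libraries was at least 0.8 times that of the gene compared. hlh-30, rme-2, C32B5.13, Y51A2D.1, rgef-1 and unc-31 were named after their values were seen. The 6 genes and all lists were chosen with earlier results of these data known. One legumain gene was dropped from the papain-family list because of its family. Of the gene identifiers, 46817 were found in Ensembl release 115. No libraries of a group agreed within sampling noise (chi-square over degrees of freedom of 5.88 or more), and all 8 were kept.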

Additional observations from a re-analysis of the deposited data

How the results depend on the processing

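Under the 16 alternatives, 0 of the 6 genes passed after adjustment in any, and cpr-6 passed in all (log2 fold change -3.34 to -3.12). cpl-1 (0.13 to 0.28), cpz-1 (0.053 to 0.18) and cpz-2 (-0.35 to -0.20) kept their direction in all 16. cpz-2 had an unadjusted p under 0.05 in 12 of them and cpl-1 in 4. With one library left out, tag-196 ran from -0.041 (without cpr-6 RNAi replicate 4) to 0.26, cpi-1 from -0.11 to 0.13 and cpi-2 from -0.021 to 0.040. cpi-1 was also below 0 with RLE scaling (-0.0059), library size alone (-0.0068), no low-count filter (-0.020) and DESeq2 (-0.0059). cpi-2 was below 0 with library size alone (-0.00087) and no low-count filter (-0.0079). The cause of these changes of sign was not tested.

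Over all genes, 1 gene was called, against 28 with no low-count filter, 5 by DESeq2, 2 with the replicate block and 1 to 3 with one library left out. The replicate numbers were not taken as pairs: deviations of same-numbered libraries correlated at -0.03 to 0.25, over 0.1 for 2 of 4 numbers, and 1 of 4 matched best with its own number. With the replicate block the log2 fold changes were 0.19 for cpl-1 (unadjusted p = 0.0395, edgeR adjusted p = 0.929) and -0.27 for cpz-2 (adjusted p = 0.851). tag-196 had the fewest counts of the 6, from 162 to 242 in a library.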
